A study of Mus musculus with 598 samples.

Results

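Mixl1, Gsc, Evx1 and Lhx1, 4 homeobox genes of the mouse primitive streak, were followed through single cells of gastrulating embryos. They were taken by name as 4 of the 40912 genes in a table of read counts, and all 4 were found in it. The table holds 598 cells, each a library of its own, sorted as positive for a GFP reporter of Mesp1, which encodes a transcription factor of nascent mesoderm. Of these, 28.8% were wild type and 14.2% (85 cells) knockout at E6.75, and 57.02% were wild type at E7.25. The labels give no strain, no embryo, litter or pool for these cells, and they name no deleted gene beyond the reporter. Each group was therefore treated as 1 sample: differences are given with their counting error, and no test between groups was possible.

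During gastrulation, epiblast cells move into the primitive streak and leave it as mesoderm or endoderm, under Nodal, Wnt and Bmp signals. Homeobox genes encode transcription factors that bind DNA through a homeodomain. Mixl1 is a Nodal target expressed along the streak and is needed for normal mesoderm and endoderm. Gsc (goosecoid) is the classic marker of the organizer, the anterior end of the streak, where it acts as a repressor. Evx1 is a marker of the posterior streak. Lhx1 (Lim1) encodes a LIM-homeodomain factor of the anterior streak and the early mesoderm, and it works with the cofactor Ldb1 in head formation.

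The 4 genes differ in the homeobox codon that sets much of the DNA preference of a homeodomain. The stretch that codes for the centre of the DNA-reading helix is shown for each gene, from the GENCODE M21 transcripts on GRCm38, with that codon in capitals. Gsc has AAG, a lysine codon, and the other 3 genes have CAG, a glutamine codon.
Mixl1: tggttcCAGaaccgacgggccaag
Gsc: tggtttAAGaaccgccgagccaag
Evx1: tggtttCAGaaccggcgcatgaag
Lhx1: tggttcCAGaatcgacgctccaag

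The genes lie on separate chromosomes. In GENCODE M21 on GRCm38, Mixl1 (ENSMUSG00000026497) spans chr1:180693043-180697034 on the minus strand and Gsc (ENSMUSG00000021095) spans chr12:104471209-104473330, also on the minus strand. Evx1 (ENSMUSG00000005503) spans chr6:52313498-52318378 on the plus strand. Lhx1 (ENSMUSG00000018698) spans chr11:84518284-84525535 on the minus strand. The antisense RNA Evx1os overlaps Evx1 by 1335 bp, of which 73 bp lie in exons of both. Lhx1os, a noncoding RNA on the strand opposite Lhx1, starts close by without overlap. The strand setting of the counting is not given in the sources used here, so reads from the bases shared by Evx1 and Evx1os cannot be told apart.

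The label check and the make-up of the libraries touch every result. Mesp1 stood at 7.40 CPM (CPM scales a gene's reads to the reads on all genes, here after summing the cells of a group) in the knockout cells, against 432 in the wild type at E6.75 and 531 at E7.25, so the Mesp1 level followed the genotype labels. The cells also fell into library sets that no label names: a cell of set 1 had reads of 5 or more among 8 genes (Dusp15, Foxe1, Hoxd13, Kcnk12, Pou3f3, Six3, Sox3, Vax1), and a cell of set 2 had fewer. Set 1 took in 83 wild type cells at E6.75, all 85 knockout cells and 28.9% of all 598 cells as wild type E7.25 cells. Set 2 took in the other 89 wild type cells of E6.75 and, with 28.1% of all cells, the other wild type cells of E7.25. Every cell with Y-linked reads (over 3 CPM of such genes) fell in set 1. A difference between the sets is therefore also one between a mixture with such cells and one without them. The part of these cells in the set differences was not tested. Median depth was 689539, 940161 and 807746 reads per cell in the 3 groups of set 1, and 1799029 and 2264484.5 in set 2. Markers of blood, included because the labels' protocol speaks of bone marrow, summed to at most 15.7 CPM in any group of a set. None of the 4 genes was among the 94 genes that separated the sets by share of cells, but their levels differed between the sets, so each result is given over all cells and within a set.

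Mixl1 was the most abundant of the 4 genes at E6.75. In wild type cells of set 1 it ranged from 171.4 to 3453 CPM with a median of 897. In set 2 the range was 303.7 to 6399.6 CPM with a median of 1770.0. Every wild type cell thus had Mixl1 well above the level of single reads, and the sets overlapped widely. Gsc was lower: its median was 35.965 CPM in set 1 (lowest 0, highest 264.7) and 79.6 CPM in set 2 (lowest 0, highest 476). Gsc reads were found in 93.6% of the wild type cells (95% Clopper-Pearson interval 88.8 to 96.8%). Evx1 had a median of 113.4 CPM in set 1 (8.97 to 461) and 168.3 CPM in set 2 (3.52 to 553), with reads in every cell. Lhx1 also spread widely: its median was 140.6 CPM in set 1 (0 to 1355) and 337.3 CPM in set 2 (0.528 to 1564). The SD of Lhx1 over cells was 2.23 on the scale of log2(CPM + 1), against 0.96 for Mixl1, 1.06 for Evx1 and 2.11 for Gsc. Within set 1 the SD of Gsc, 2.19, was above that of Lhx1, 2.09.

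Levels of different genes were set beside each other per kilobase of exon. In wild type cells at E6.75 the order was Mixl1 at 704 CPM per kb, Lhx1 at 86.6, Gsc at 67.6 and Evx1 at 55.8. Mixl1 stood apart from the next gene by more than the SD over cells of either, while the gaps among the lower 3 genes were smaller than those SDs. In knockout cells Mixl1 was again highest, at 744 CPM per kb, followed by Gsc at 80.7, Evx1 at 46.9 and Lhx1 at 34.4. In wild type cells at E7.25 Mixl1 fell to 141.1 CPM per kb, close to Lhx1 at 93.7, and Evx1 at 17.1 and Gsc at 14.5 lay below. Neighbours in the E7.25 order lay within the SD over cells, which was 2.45 to 3.46 on the log2 scale.

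**Figure D1:**
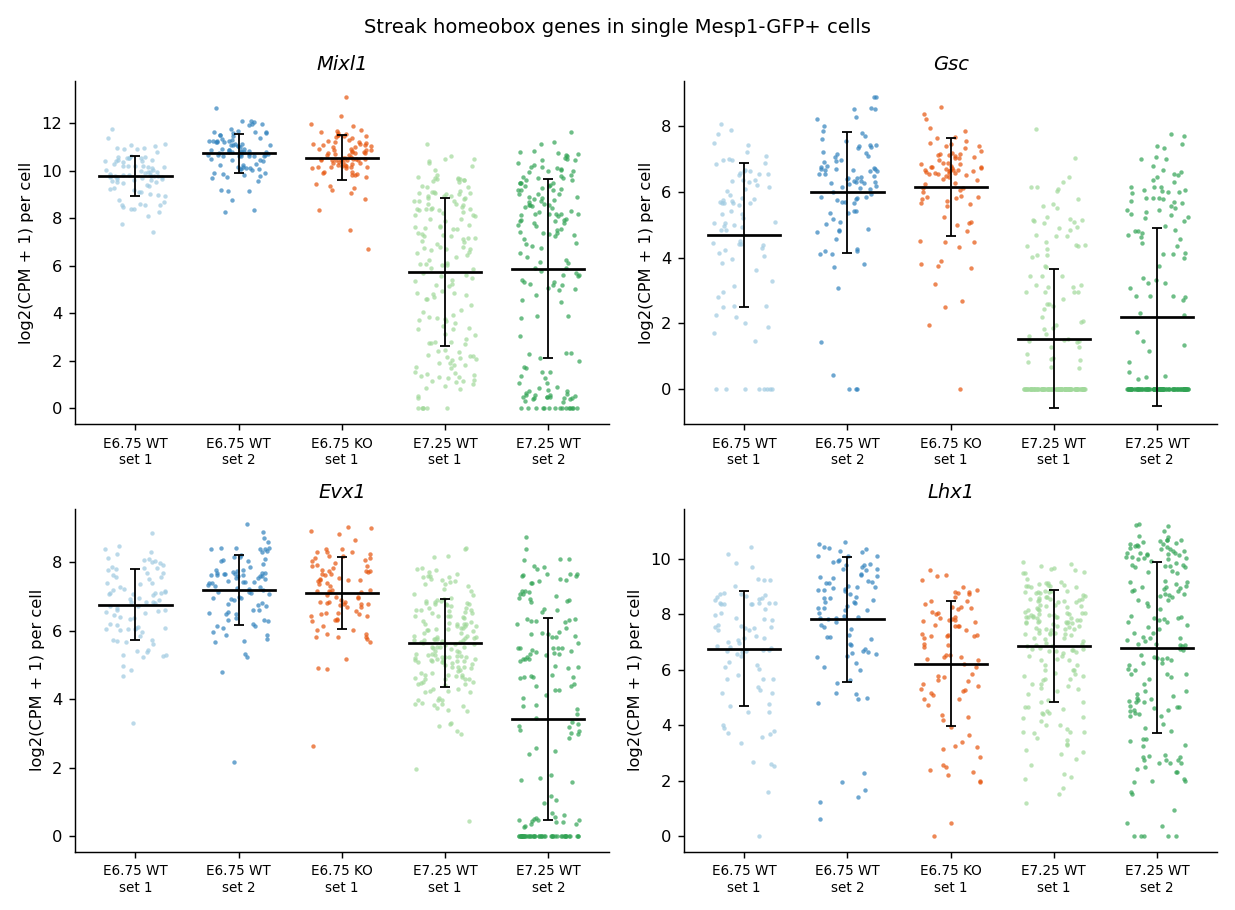
Level of Mixl1, Gsc, Evx1 and Lhx1 in each cell as log2(CPM + 1), with 1 point per cell, by group and library set; black lines are the mean and bars 1 SD over cells. Mixl1 is high in all E6.75 cells and spans the whole scale at E7.25, Gsc is at 0 in most E7.25 cells, and Lhx1 spreads widely in every group.

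The first comparison asked how the 4 genes differ between E6.75 and E7.25 in wild type cells. Mixl1, Gsc and Evx1 were at least 2-fold lower at E7.25 and Lhx1 was not, in the sum over all cells and in each library set. Of 10918 genes measured over all cells, 1.8% were at least 2-fold lower and 4.13% at least 2-fold higher. Of 10730 genes in set 1 the shares were 3.59% lower and 6.3% higher, and of 10986 genes in set 2 they were 2.18% and 4.94%. The median log2 ratio of the 4 genes was -1.92, against 0.02 for all genes measured. A ratio here is of summed CPM with 1 CPM added, and a gene counted as different needed at least 5 CPM in the higher group.

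Mixl1 fell from 1616 to 323.7 CPM. The log2 ratio was -2.32 over all cells (counting interval -2.33 to -2.30), -2.29 in set 1 and -2.36 in set 2, which is 4.98-fold over all cells. The cells at E7.25 did not shift as a block. In set 1 they ranged from 0 to 2214 CPM with a median of 74.1, and in set 2 from 0 to 3161 CPM with a median of 152.8. The quartiles in set 2 were 1.92 and 535 CPM, so a part of the cells had almost no Mixl1 while others stayed in the range of E6.75. At E7.25, 56.9% of the cells had at least 50 CPM of Mixl1 (interval 51.4 to 62.2%), where all cells had that much at E6.75.

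Gsc fell from 85.7 to 18.4 CPM. The log2 ratio was -2.16 over all cells (-2.21 to -2.12), -2.35 in set 1 and -2.15 in set 2. Its median at E7.25 was 0 in both sets, and its highest cell had 238.3 CPM in set 1 and 215.6 CPM in set 2. Reads of Gsc were found in 44.6% of E7.25 cells (interval 39.2 to 50.02%). With all cells brought down to 100000 reads by random draws, the share with a Gsc read was 86.6% at E6.75 and 31.96% at E7.25. Within set 1 the Gsc difference depended on the cells with Y-linked reads: at E7.25 Gsc summed to 3.46 CPM in the 95 cells with such reads and to 18.6 CPM in the 78 without. The log2 ratio between stages was -3.73 with Y-linked reads and -1.45 without, and the part these cells play was not tested.

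Evx1 fell from 160.5 to 49.3 CPM, a log2 ratio of -1.68 over all cells (-1.71 to -1.65), -1.25 in set 1 and -1.90 in set 2. The sets differed in the shape of the E7.25 cells. In set 2, Evx1 had a median of 12.6 CPM (0 to 432), and 72.02% of the cells had a read. In set 1, all cells had reads of Evx1, with a median of 49.4 CPM (0.353 to 342). The 10th percentile of set 1 cells lay between 16 and 20 reads of Evx1 per cell in each of 4 depth bins, whose median depth went from 358012.5 to 1752521 reads. A read number that stays the same over such a range of depth gives a CPM that falls with depth: the Pearson r of Evx1 with log2 depth was -0.60 over the set 1 cells and -0.05 over the set 2 cells. Evx1os, on the other strand, showed no such floor, with a 10th percentile of 0 reads in every depth bin of set 1. What sets the floor was not tested. The set 2 values are the ones free of it, and there Evx1 was 3.73-fold lower at E7.25.

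Lhx1 summed to nearly the same level at both stages, 353 CPM at E6.75 and 381 CPM at E7.25. The log2 ratio was 0.11 over all cells (0.10 to 0.13), 0.18 in set 1 and 0.06 in set 2. The cells behind these sums changed in set 2. There the quartiles of Lhx1 moved apart from 106.7 and 664 CPM at E6.75 to 22.5 and 830 CPM at E7.25, and the highest cell rose from 1564 to 2409 CPM. The median of set 2 cells went from 337.3 to 140.4 CPM, and the mean of log2(CPM + 1) was lower by 1.01 at E7.25. Set 1 showed no such widening: its median was 140.6 CPM at E6.75 and 175.3 CPM at E7.25, and its mean log2 level differed by 0.10.

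Marker lists moved with the stage as well. In set 2 the summed level of 8 primitive streak markers was 2459 CPM at E6.75 and 1444 CPM at E7.25, with 8 and 7 of them at 5 CPM or more. The 9 epiblast markers went from 1687 to 1041 CPM and the 9 nascent mesoderm markers from 1499 to 2685 CPM. In set 1 the same lists went from 2702 to 1383, from 1116 to 759 and from 1504 to 2820 CPM. Their part in the lower levels of Mixl1, Gsc and Evx1 was not tested.

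The second comparison was between knockout and wild type cells at E6.75. Over all cells, Lhx1 was at least 2-fold lower in the knockout cells and the other 3 genes were within 2-fold. Of 10704 genes measured, 7.46% were at least 2-fold lower and 1.87% at least 2-fold higher. All knockout cells belong to set 1, and against the wild type cells of set 1 none of the 4 genes passed 2-fold, where 5.78% of 10588 genes were lower and 3.2% higher by that much. The median log2 ratio of the 4 genes was -0.08 over all cells and 0.38 in set 1, beside -0.10 and -0.03 for all genes. The same E6.75 wild type cells serve in the comparison between stages.

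Lhx1 had a median of 112.7 CPM in knockout cells (0 to 771), against 140.6 CPM (0 to 1355) in wild type cells of set 1 and 337.3 CPM in those of set 2. Its summed level was 139.9 CPM in knockout cells, 208.1 in set 1 wild type and 438 in set 2 wild type. The log2 ratio was therefore -1.33 against all wild type cells (-1.36 to -1.30) and -0.57 against those of set 1 (-0.61 to -0.53). The ranges overlapped, and the difference in the mean of log2(CPM + 1) within set 1, -0.54, was smaller than the SD over cells of 2.26 in knockout and 2.09 in wild type cells. Wild type cells of the 2 library sets differed from each other by a log2 ratio of -1.07 in Lhx1 at E6.75, more than knockout and wild type cells differed within set 1. Set 2 held no cells with Y-linked reads. Among these wild type cells of set 1, Lhx1 summed to 181.8 CPM with such reads and 255.9 CPM without. Within set 1 the ratio of knockout to wild type cells was -0.90 in cells with Y-linked reads (49 knockout, 53 wild type) and -0.21 in cells without (36 and 30).

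Mixl1 had a median of 1485 CPM in knockout cells (102.8 to 8937), between those of set 2 and set 1 wild type cells. Summed levels were 1706 CPM in knockout, 1088 CPM in set 1 and 1925 CPM in set 2 wild type cells. The log2 ratio was 0.08 over all cells (0.07 to 0.09) and 0.65 in set 1. Gsc had a median of 93.9 CPM in knockout cells (0 to 379), above both wild type medians, with overlapping ranges. Its summed level of 102.3 CPM gave a log2 ratio of 0.25 over all cells (0.21 to 0.30) and 0.85 in set 1 (0.79 to 0.92). In set 1 cells without Y-linked reads the Gsc ratio was 1.30, past 2-fold, from 131.2 CPM in 36 knockout cells and 52.6 CPM in 30 wild type cells. Evx1 had a median of 141.6 CPM in knockout cells (5.22 to 518) and its ratio was -0.25 over all cells and 0.12 in set 1. Over all cells it was 0.13 with every cell weighted equally and 0.17 after thinning, so no direction is given for Evx1.

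Within set 1, markers of epiblast were higher in knockout cells, as Mixl1 and Gsc were, while primitive streak markers stayed near their level. The 8 primitive streak markers summed to 2775 CPM in knockout cells and to 2702 and 2459 CPM in wild type cells of set 1 and set 2. The 9 epiblast markers summed to 1834 CPM in knockout cells and 1116 CPM in wild type cells of set 1, and to 1687 CPM in wild type cells of set 2, with 7 of 9 at 5 CPM or more in each and Sox2 below 1 CPM in set 1 wild type cells. The 9 nascent mesoderm markers, which include Mesp1 itself, summed to 271.96 CPM in knockout cells and to 1504 and 1499 CPM in wild type cells of set 1 and set 2. The part of these lists in the results was not tested. With Lhx1 lower and Gsc higher, the order of the genes by CPM per kb differed: Gsc was the second highest gene in knockout cells and Lhx1 the lowest, while in set 1 wild type cells Lhx1 at 51.1, Gsc at 44.3 and Evx1 at 43.1 lay side by side.

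**Figure D2:**
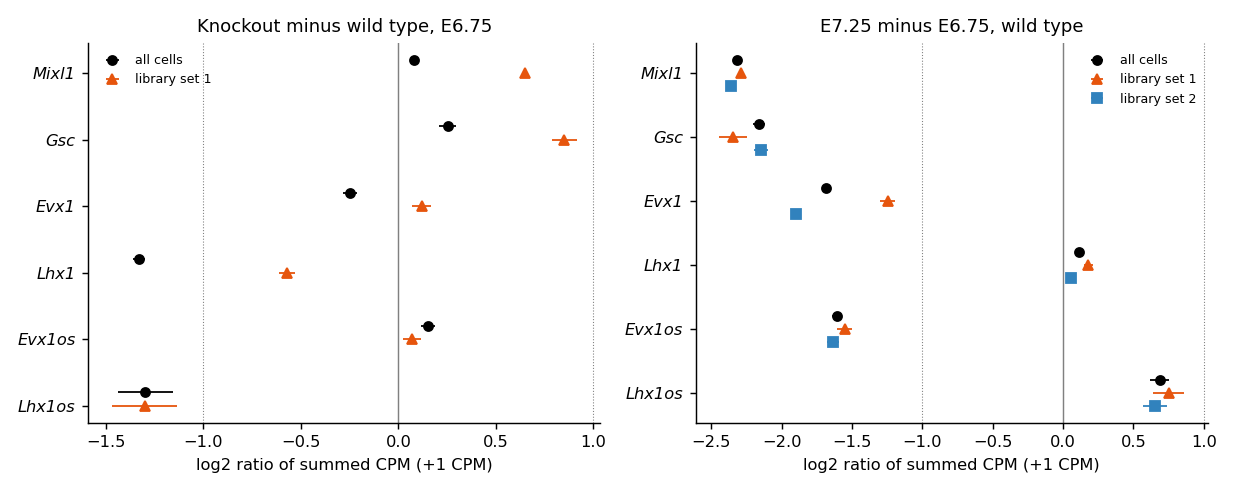
Log2 ratios of summed CPM (1 CPM added) for the 4 genes and the noncoding neighbours Evx1os and Lhx1os, over all cells (circles), library set 1 (triangles) and library set 2 (squares); bars are 95% counting intervals and dotted lines mark 2-fold. The stage ratios of Mixl1, Gsc and Evx1 lie past 2-fold in every set of cells, while the knockout ratio of Lhx1 passes it over all cells and not in set 1.

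The noncoding neighbours of Evx1 and Lhx1 were read beside them. Evx1os fell with Evx1 between stages, from 130.6 to 42.2 CPM, a log2 ratio of -1.61 over all cells, -1.55 in set 1 and -1.63 in set 2. In the knockout comparison it was within 2-fold, at 0.15 over all cells and 0.07 in set 1. Lhx1os was at 14.7 CPM in wild type cells at E6.75, at 5.39 CPM in knockout cells and at 24.3 CPM at E7.25. Its knockout ratio was -1.30 over all cells and also -1.30 in set 1, past 2-fold in both, where Lhx1 itself was -0.57 in set 1. The Lhx1os sums rest on few cells at a low level. The top 5 cells gave 43.6% of its reads in knockout and 45.7% in set 1 wild type cells, with medians of 0 and 3.64 CPM. Lhx1os reads were found in 47.1% of knockout cells (40 of 85, interval 36.1 to 58.2%) and 61.4% of set 1 wild type cells (51 of 83, interval 50.1 to 71.9%), so the intervals overlap.

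The 4 genes were next read together in the same cell, with 50 CPM as the level that counts as present. At E6.75 all 4 were present in 25 of 83 wild type cells of set 1 (30.1%, interval 20.5 to 41.2%) and 54 of 89 of set 2 (60.7%, interval 49.7 to 70.9%). In knockout cells it was 41 of 85 (48.2%, interval 37.3 to 59.3%). No cell at E6.75 lacked all 4, which for the wild type cells allows a share of up to 1.74%. At E7.25 all 4 were present in 1 cell of set 1 (0.578%, interval 0.0146 to 3.18%) and 6 of set 2 (3.57%, interval 1.32 to 7.61%), and none in 10 and 27 cells. In set 1 the floor of Evx1 reads seen at E7.25 can reach 50 CPM by itself in the cells with fewest reads, so presence of Evx1 there can rest on it. The most frequent states at E7.25 were Lhx1 alone, in 42 cells of set 1 and 31 of set 2, and Mixl1 with Evx1 and Lhx1, in 41 and 30 cells.

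A state of Mixl1, Gsc and Evx1 without Lhx1 was present in 20 of 85 knockout cells (23.5%), 3 of 83 wild type cells of set 1 (3.61%) and 5 of 89 of set 2 (5.62%). Put differently, of the cells with Gsc, 67.2% also had Lhx1 in the knockout group (43 of 64), 87.9% in set 1 wild type (29 of 33) and 92.1% in set 2 wild type (58 of 63). Among all cells of these groups, in the same order, Lhx1 was present in 63.5%, 72.3% and 85.4%. Gsc was present in 75.3%, 39.8% and 70.8%, so the groups differ in the separate shares of both genes. The state without Lhx1 was chosen after its values were seen.

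In set 2 at E7.25, Gsc was found inside the cells with Lhx1. All 31 cells with at least 50 CPM of Gsc also had at least 50 CPM of Lhx1, which was present in 64.9% of all set 2 cells. After thinning, all 62 cells with a Gsc read had an Lhx1 read, beside 85.7% of all cells. The reverse did not hold: 28.4% of the set 2 cells with Lhx1 had Gsc. Set 1 did not show this: 7 of 9 cells with Gsc had Lhx1 (77.8%), beside 74.6% of all cells, and after thinning 43 of 47 had it (91.5%), beside 92.5%. Evx1 was often found with Mixl1: 45 of the 48 set 2 cells with Evx1 had Mixl1 (93.8%), beside 58.9% of all cells. In set 1, with its floor of Evx1 reads, it was 61 of 85 cells (71.8%), beside 54.9%. Gsc and Evx1 shared 6 cells in set 2 (3.57%) and 3 in set 1 (1.73%), beside 5.27% and 2.56% from the product of their separate shares. After thinning they shared 23.2% of the set 2 cells, beside a product of 20.6%.

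**Figure D3:**
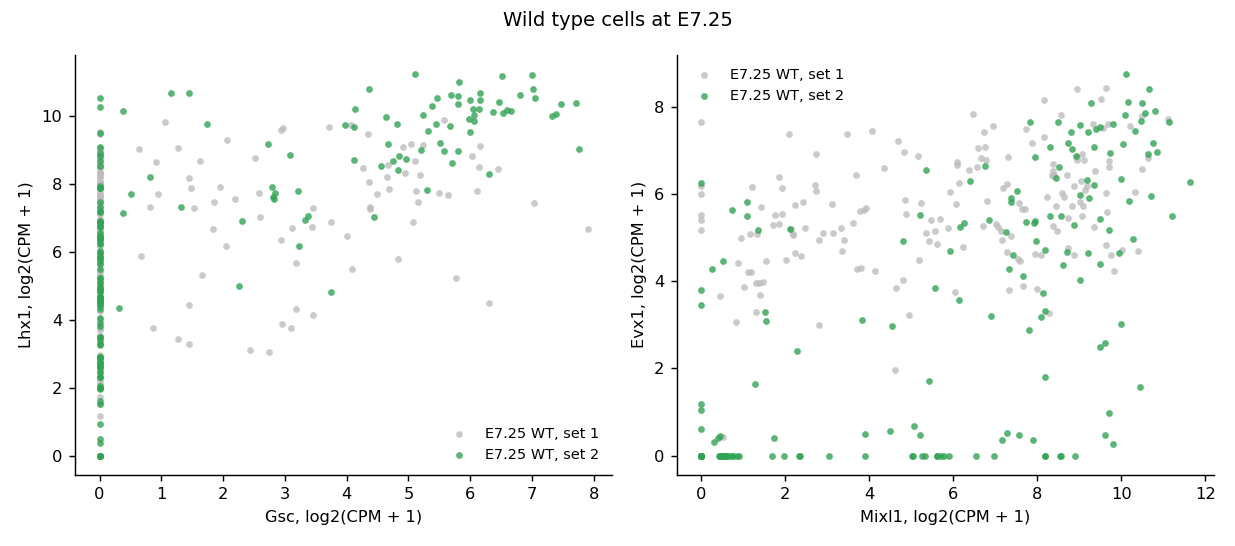
Levels of Gsc against Lhx1 and of Mixl1 against Evx1 in each wild type cell at E7.25, as log2(CPM + 1), with set 1 in grey and set 2 in green. In set 2 every cell with at least 50 CPM of Gsc has at least 50 CPM of Lhx1, and the set 1 cells keep Evx1 reads where Mixl1 is near 0.

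Correlations over cells were highest for Gsc with Lhx1. The Pearson r of log2(CPM + 1) was taken within each of the 5 combinations of group and set. Cells within a combination differ in depth and no embryo is named for them, so r is given as a description. Gsc and Lhx1 had r of 0.52 and 0.49 in wild type cells of set 1 and set 2 at E6.75, 0.30 in knockout cells, and 0.21 and 0.73 in set 1 and set 2 at E7.25, with a mean of 0.45. Mixl1 and Evx1 had 0.22, 0.06, 0.45, 0.39 and 0.63 in the same order, with a mean of 0.35. Mixl1 and Gsc had a mean of 0.21 and no negative value. In set 2 alone their mean was 0.37, beside 0.34 for Mixl1 and Evx1. In knockout cells all 6 pairs had an r above 0. Mixl1 and Lhx1 were at -0.19, 0.33, -0.06 and 0.21 in the wild type groups and at 0.45 in the knockout cells. Gsc and Evx1 (mean -0.02) and Evx1 and Lhx1 (mean -0.08) had values of both signs. Evx1 and Lhx1 were at -0.26, -0.18, -0.17 and -0.03 in the wild type groups and at 0.24 in the knockout cells. The knockout value was 0.15 by Spearman, 0.27 after thinning and 0.32 under a stricter minimum of reads and genes per cell. In knockout cells both genes fell with log2 depth (r -0.38 for Evx1 and -0.20 for Lhx1). The part of depth in the knockout value was not tested.

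**Figure D4:**
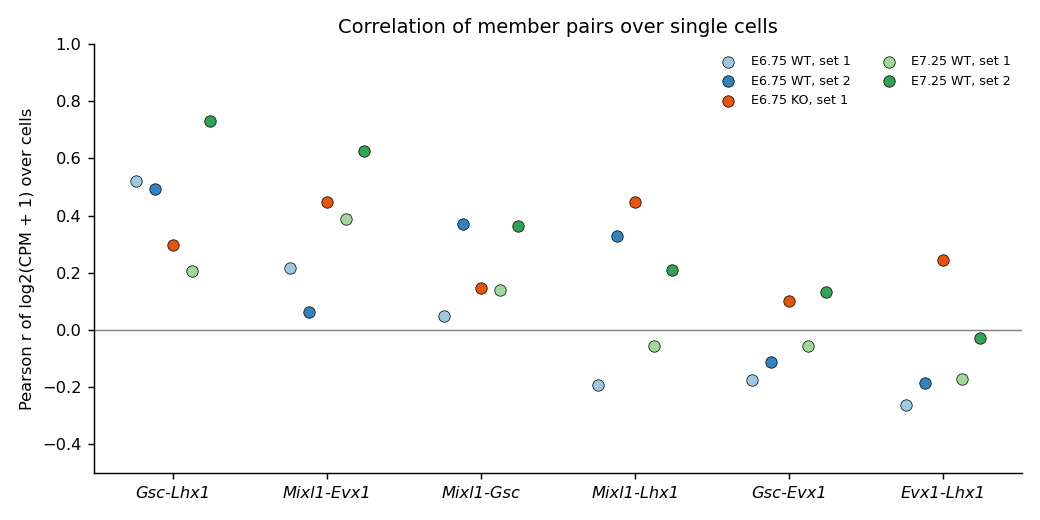
Pearson r of log2(CPM + 1) over single cells for each of the 6 pairs of the genes, with 1 point for each of the 5 combinations of group and library set. Gsc and Lhx1 lie above 0.2 in all 5, and Evx1 and Lhx1 lie below 0 in the 4 wild type combinations and at 0.24 in knockout cells. All 6 pairs lie above 0 in knockout cells.

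Among 10113 genes, the ones whose levels followed each of the 4 most closely over cells were named by their mean r over the 5 combinations. For Gsc the first was Lhx1 (0.45), followed by Otx2 (0.41), a homeobox gene of the anterior embryo, and Lhx1os (0.38). Next came Tdgf1 (0.35), the Nodal co-receptor Cripto, and its near-identical copy Tdgf1-ps1 (0.35). How far the reads of Tdgf1 and its copy can be told apart was not tested. For Lhx1 the closest were Otx2 (0.53), Lhx1os (0.51), Arl4d (0.50), Cyp26a1 (0.49), which degrades retinoic acid, and Frzb (0.46), a secreted Wnt antagonist; Gsc came in place 6. The lowest were Igfbp3 (-0.34), which binds insulin-like growth factors, and the proteasome activator genes Psme2b (-0.32) and Psme2 (-0.31).

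For Mixl1 the closest were T (0.44), the T-box gene brachyury of the streak, Fst (0.44), the activin antagonist follistatin, Sp5 (0.41), a Wnt target, Evx1 (0.35) and Dusp6 (0.34), a feedback phosphatase of FGF signalling. The lowest was Myrf (-0.33). For Evx1 they were Foxf1 (0.39) and Msx2 (0.37), a forkhead and a homeobox gene of extraembryonic and posterior mesoderm, Evx1os (0.36), Mixl1 (0.35) and Setd5 (0.34). The lowest were Sfrp1 (-0.35), a Wnt antagonist, and Pkdcc (-0.30). Foxf1 and Setd5 had their highest r, 0.70 and 0.66, in set 1 at E7.25, where Evx1 has its floor of reads. Their r in set 2 at E7.25 was 0.42 and 0.09. In set 2 alone, where Evx1 has no floor of reads, Evx1os came first (0.58), then Msx2 (0.48), Wnt3 (0.46), Vrtn (0.46) and Tbx3 (0.42). There Gsc and Lhx1 were each other's first gene (0.61), while for Mixl1 the nearest of the other 3 was Gsc in place 11 (0.37), ahead of Evx1 in place 18 (0.34).

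Gsc and Lhx1, the pair with the highest mean r over cells though not with like ratios between groups, share a short run of letters upstream of their starts. Up to 250 bases before the start were read from the RefSeq promoter table (GRCm38.p6), which matched 3 of the 4 genes, and bases within the gene's own annotated span were left out. Noncoding genes on the other strand reach into all 3 stretches: Gm10000 spans that of Gsc, Evx1os that of Evx1, and Lhx1os a part of that of Lhx1. Each is printed 5′ to 3′ on the gene's strand: Gsc at chr12:104473331-104473486 (minus), Lhx1 at chr11:84525536-84525784 (minus) and Evx1 at chr6:52313248-52313497 (plus). The capitals are TGACGTC, the core of the cyclic AMP response element, in Gsc and Lhx1, and CACACCT, a T-box factor motif, in Evx1.
Gsc: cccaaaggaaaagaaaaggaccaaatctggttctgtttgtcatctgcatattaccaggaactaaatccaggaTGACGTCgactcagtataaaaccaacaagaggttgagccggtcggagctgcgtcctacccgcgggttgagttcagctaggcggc
Lhx1: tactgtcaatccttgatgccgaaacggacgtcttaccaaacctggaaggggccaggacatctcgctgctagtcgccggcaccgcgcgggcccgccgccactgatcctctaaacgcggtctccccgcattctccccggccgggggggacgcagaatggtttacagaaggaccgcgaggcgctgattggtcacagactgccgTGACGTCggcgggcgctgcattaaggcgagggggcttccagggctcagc
Evx1: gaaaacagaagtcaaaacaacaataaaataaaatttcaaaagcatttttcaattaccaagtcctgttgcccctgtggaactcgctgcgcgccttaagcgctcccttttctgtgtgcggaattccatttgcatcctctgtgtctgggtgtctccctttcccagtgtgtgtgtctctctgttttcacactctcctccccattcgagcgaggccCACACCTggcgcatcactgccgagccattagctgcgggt
TGACGTC starts at position -84 in Gsc and -49 in Lhx1, counted from the end of each printed stretch, and was not in the Evx1 stretch. Windows over 27025 promoters were read from 250 bases before the RefSeq start. TGACGTC was in 0.866% of windows as long as the Gsc stretch and in 2.82% of windows as long as that of Lhx1. The shorter windows leave out the bases nearest the RefSeq start, while the Gsc stretch ends at the start in GENCODE. The 0.866% is therefore not a share for bases next to a start. CACACCT was in 5.14% of windows as long as that of Evx1. Other motifs were searched on both strands. The SMAD motif CAGACA was in Evx1, where 17.1% of windows hold it. The homeodomain core TAATT was in Evx1 too (25.4% of windows). The E-box CACCTG was in Evx1 (17.1% of windows), overlapping the T-box motif. The motif ATTGG was in Lhx1 (34.4% of windows). The FOXH1 motif TGTNNATT and the TCF/LEF motif CTTTGA were in none of the 3 stretches. The motifs in capitals were chosen after the sequences were seen, and a match describes the letters only.

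Cells were then grouped by their other genes, to see where the 4 genes lay. Each group was clustered on its own from variable genes that left out the 4 genes, with values centred within library sets. Clusters are given by number and leading genes, and a name was given only where no other cell type had more markers among the top 10 genes by fold. The 9 clusters of E7.25 cells differed strongly in all 4 genes. Cluster 6, led by Kdr, Lmo1 and Pmp22 (24 cells, 21 of them of set 2), had the highest Mixl1, 1077 CPM, and the highest Evx1, 168.5 CPM. It held 29.5% of all Mixl1 reads and 30.3% of all Evx1 reads at E7.25, with 8.87% of the reads on genes. These shares depended on the clustering: with other settings the highest cluster held up to 59.5% of Mixl1 reads and as little as 9.88% of Evx1 reads. Its cells had a median of 1072 CPM of Mixl1 (46.1 to 2243), in the range of E6.75. The cluster had only 3 cells of set 1. Among set 1 cells, cluster 7 had the highest median of Mixl1 of the other clusters, 638.5 CPM.

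Cluster 3, led by Otx2, Sfrp1 and Fgf5 (35 cells, 25 of set 2), had the highest Lhx1 and Gsc over both sets. Lhx1 reached 1177 CPM there, with a median of 1131 and at least 140.2 CPM in every cell, and Gsc reached 50.7 CPM. The cluster held 39.8% of all Lhx1 reads and 35.6% of all Gsc reads with 12.9% of the reads on genes; with other clustering settings the highest cluster held 27.7 to 74.5% of Lhx1 reads and 22.97 to 79.3% of Gsc reads. The Gsc order rested on set 2, where the median of cluster 3 was 55.6 CPM. In set 1 it was 1.32 CPM, below 8.01 CPM in cluster 5 and 1.64 CPM in cluster 1. Lhx1 had its highest median in cluster 3 in both sets, 419.1 CPM in set 1 and 1228.5 CPM in set 2. Otx2 was thus a leading gene of the cluster and also the gene nearest to Lhx1 over cells. In cluster 1, led by Tdgf1 (57 cells), Lhx1 was 607 CPM, Mixl1 398 CPM and Gsc 30.03 CPM. In cluster 5, led by Cldn6, Cdh1 and Cldn7 (30 cells), Lhx1 was 482 CPM, Mixl1 436 CPM and Gsc 45.8 CPM, while Evx1 was 20.2 CPM. Of the 9 epiblast markers, 7 were at least 2-fold higher there than in the other E7.25 cells. Its top genes by fold were Cldn6, Trh, Sox17 and Chrd.

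Other clusters were low in some of the genes. Cluster 8, led by Cer1, Adrb3 and Sfrp1 (33 cells), had Mixl1 at 0.764 CPM and Gsc at 0.899 CPM, while Lhx1 was 130.4 CPM and no cell was without it. Cluster 7, led by Hoxb1, T and Fst (53 cells), kept Mixl1 at 327.2 CPM and Evx1 at 52.8 CPM with Gsc at 0.361 CPM and Lhx1 at 39.8 CPM. The extraembryonic mesoderm-like cluster 2 (38 cells) had Mixl1 at 135.4 CPM, Evx1 at 50.4 CPM, Gsc at 1.26 CPM and Lhx1 at 34.4 CPM. In cluster 4, led by Lefty1, Myrfl and Foxc2 (49 cells, 44 of set 1, 40 with Y-linked reads), Lhx1 was 184.2 CPM, Mixl1 177.5 CPM and Gsc 7.70 CPM. Cluster 0 (22 cells) had a median depth ratio of 0.37 to cells of its sets and none of the streak genes among its leading genes, so no reading is drawn from it.

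**Figure D5:**
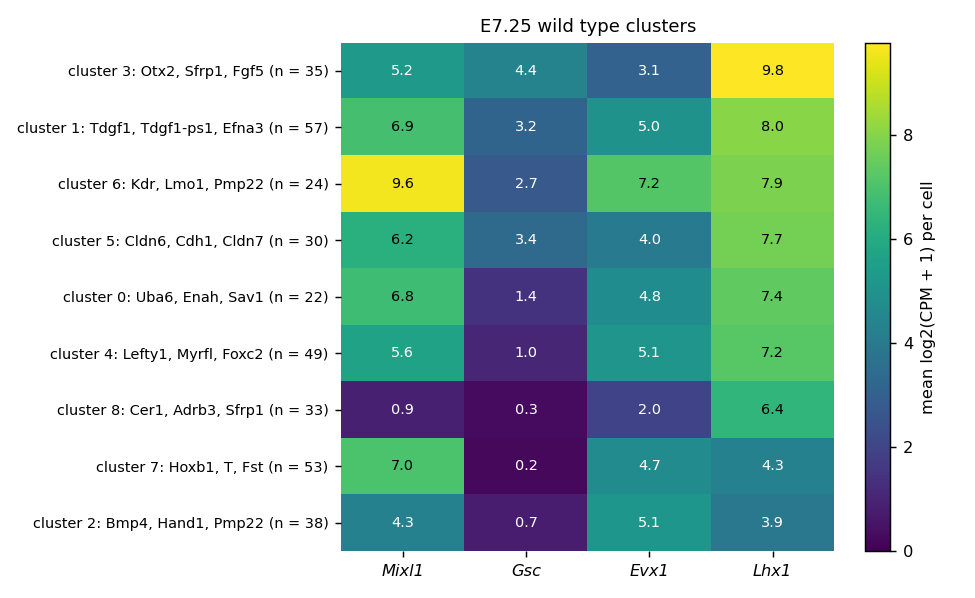
Mean log2(CPM + 1) per cell of the 4 genes in the 9 clusters of wild type cells at E7.25, ordered by Lhx1, with each cluster's 3 leading genes and its number of cells. Mixl1 and Evx1 peak in cluster 6, Lhx1 and Gsc in cluster 3, and cluster 8 has Lhx1 with almost no Mixl1.

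Among the clusters of E6.75 cells, Mixl1 differed less than Lhx1 and Gsc did. Wild type cluster 0 (18 cells) had a median depth ratio of 0.33 and is left aside. Over the other 5 clusters of wild type cells, Mixl1 lay between 1362 and 2023 CPM and Evx1 between 121.5 and 200.5 CPM. Lhx1 ranged from 96.9 CPM in cluster 3, led by Igfbp3 and Irf1 (22 cells), to 564 CPM in cluster 2, led by Fgf5 and Apln (21 cells). The high Lhx1 of cluster 2 rested on set 2, with a median of 1079 CPM. In set 1 its median was 113.3 CPM, below 228.3 CPM in cluster 4. Gsc ranged from 34.5 to 173.8 CPM in the same 2 clusters, and its median was highest in cluster 2 in both sets. The extraembryonic mesoderm-like cluster 5 (28 cells) had the highest summed Evx1, 200.5 CPM, and Lhx1 at 277.3 CPM. By the median cell, Evx1 was higher in cluster 3, at 228.4 CPM in set 1 and 270.6 CPM in set 2, against 133.6 and 191.5 CPM in cluster 5. In knockout cells, cluster 3, again led by Igfbp3 (18 cells), had the lowest summed Lhx1, 38.6 CPM. Cluster 0 (21 cells, depth ratio 0.45) had the highest summed Lhx1 and Gsc, 285.1 and 170.8 CPM. By median, cluster 1 (22 cells) was slightly higher than cluster 0 in Lhx1, 218.6 against 208.7 CPM, and in Gsc, 118.6 against 110.5 CPM. The lowest median of Lhx1 was in cluster 4, 17.9 CPM against 35.2 CPM in cluster 3. Knockout cluster 4 (8 cells, all with Y-linked reads) had the deepest libraries and gave 26.5% of the knockout reads. Without it, the ratios to set 1 wild type cells were 0.39 for Evx1 and a median of 0.57 over the 4 genes.

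Genes around the 4 in the streak were read from lists, none of which has a test here. Beside their counts stand the shares of all genes past 2-fold, which were 4.13% higher and 1.8% lower between stages, and 3.2% higher and 5.78% lower in the knockout comparison within set 1. Of the Nodal pathway, 16 of 17 genes were measured between stages, and 4 were at least 2-fold higher and 3 lower at E7.25. The ligand Nodal went from 38.5 to 2.90 CPM and the inhibitor Cer1 from 15.04 to 151.8 CPM. In the knockout comparison within set 1, 3 of 16 were higher and 1 lower: Nodal was 89.4 CPM in knockout and 35.6 in wild type cells (log2 ratio 1.30), and the inhibitor Lefty2 24.1 and 279.03 CPM (-3.48). The T-box and signalling genes of the streak had 3 of 14 higher and 3 lower at E7.25, among the latter the ligands Fgf8, from 203.5 to 25.9 CPM, and Wnt3, from 129.4 to 44.2 CPM. T itself was 318.2 CPM at E6.75 and 304.2 CPM at E7.25 over all cells, but 292.6 and 166.04 CPM in set 1. In knockout cells of set 1, 1 of 14 was higher (Wnt3a, 7.46 CPM against 2.57) and 3 lower, among them Snai1, a repressor of epithelial genes, at 114.5 against 283.5 CPM.

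Of the anterior streak and organizer genes, 10 of 14 were measured and 5 were higher at E7.25 with none lower. Chrd, a Bmp antagonist, went from 2.97 to 19.4 CPM and Noto, a notochord factor, from 0.383 to 7.52 CPM. In set 1, 6 were measured, with 3 higher and 1 lower: Fst went from 363.2 to 155.3 CPM. Chrd was not among the genes past 2-fold there. Noto was below 1 CPM in set 1 at both stages, so it was not measured there. Otx2 stayed near its level, 172.5 and 156.9 CPM. In set 1 knockout cells 2 of 6 measured were higher, Foxa2 and Fst, and 1 lower, Hhex. The posterior streak and tail genes had 6 of 12 higher at E7.25 and none lower: Hoxb1 went from 15.2 to 114.3 CPM and Bmp4 from 10.5 to 45.9 CPM. In set 1 knockout cells 5 of 10 were lower and 1 higher, with Fgf3 at 6.25 against 158.2 CPM and Wnt5a at 1.98 against 26.8 CPM. The lists' medians were 0.43 (Nodal), -0.08 (T-box and signalling), 0.96 (anterior) and 1.08 (posterior) between stages, beside 0.02 over all genes and -1.92 for the 4 genes.

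Lhx1 acts with LIM-binding cofactors. A list of such cofactors and related genes, LIM-only proteins among them, held 10 names, and 9 were measured between stages. Of these, Lmo2, a LIM-only protein, was higher (3.49 to 21.3 CPM) and Ldb2, a LIM-binding cofactor, lower (19.2 to 7.48 CPM). Ldb1 was 23.8 and 28.3 CPM. In set 1 knockout cells Lmo1 alone passed 2-fold, at 14.2 against 39.3 CPM. Of 45 other homeobox genes listed, 29 were measured between stages; 8 were higher and 3 lower at E7.25 (5 and 3 in set 1, 10 and 3 in set 2), with Nanog, a pluripotency factor, from 82.4 to 12.6 CPM and Alx1, a factor of head mesenchyme, from 1.21 to 34.2 CPM. In set 1 knockout cells 5 of 24 were lower and none higher, with Zeb2, a repressor of epithelial genes, at 4.32 against 13.7 CPM. Gsc2, the closest relative of Gsc by name, stayed below 1 CPM in every group.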

How the data were processed

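Of the cells measured, 172 were wild type and 85 knockout at the earlier stage (E6.75). The later stage (E7.25) had 341, all wild type, with 173 in set 1 and 168 in set 2. The authors deposited a table of raw counts of reads, a gene a row and a cell a column. Per the submitters' processing notes the aligner was GSNAP and the counter HTSeq 0.5.3p3, on mm10. The annotation release, strand setting and counting parameters were not stated in the labels or headers. The labels cite Picelli et al. for the libraries, whose Smart-seq2 protocol has no molecular identifiers, so reads are not independent molecules. Of 40912 gene identifiers 40340 matched GENCODE M21 (GRCm38), and 0 columns had no sample.

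A minimum of 100000 reads and 2000 genes per cell removed 0 cells, whose depth was 101895 to 14159574 reads. Reads were summed per group, scaled to CPM and compared as log2 ratios after adding 1 CPM, so ratios of low genes are too small. A call needed 2-fold and 5 CPM in the higher group. With 1 sample a group no test was run, and intervals (95%; exact Poisson for sums, Clopper-Pearson for shares; 3 counts where none was seen) hold counting error alone. Clusters came from scanpy 1.11.5 (2000 variable genes, 20 components, 15 neighbours, Leiden resolution 1). edgeR 4.0.16 and DESeq2 1.42.0 gave scaling factors alone. Doublets were not called. Cells with Y-linked reads had over 3 CPM of such genes.

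Genes of like pattern were up to 5 with the highest and 3 with the lowest mean r, past 0.3 in size; list examples had the largest ratios, and others were chosen after their values were seen. The 4 genes, the lists, the library sets and the rules were chosen with earlier results of these data known. The steps were tested on simulated counts. Alternatives were cell filters, equal weight per cell, thinning, scaling, pseudocount, mitochondrial genes left out, minimums, clustering settings, library sets and Y-linked reads. Added after seeing the data were set 2 alone for the correlations, set 1 without the deepest knockout cluster, and set 1 less 17 reads of Evx1 per cell.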

Additional observations from a re-analysis of the deposited data

How the results depend on the processing

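The count of 3 genes lower at E7.25 held under all 16 alternatives, and Mixl1 (-2.40 to -2.10), Gsc (-3.73 to -1.45) and Evx1 (-1.90 to -1.21) kept their sign in all 14 settings; Lhx1 lay between -0.04 and 0.20. The median of the 4 genes between stages, -1.92, was -1.96 with DESeq2 factors, -1.80 with equal weight per cell, -1.85 with thinned cells, -1.64 with 10 CPM added, -1.82 without the 5% deepest cells, -1.77 in set 1, -1.86 in set 1 cells with and -1.33 in those without Y-linked reads, and -2.02 in set 2. In the knockout comparison the count of 1 (Lhx1) became 0 in set 1, in set 1 cells with Y-linked reads, in set 1 without the deepest knockout cluster and in set 1 with 17 reads of Evx1 taken off every cell. In set 1 cells without Y-linked reads it stayed 1, but the gene was Gsc (1.30) and Lhx1 was -0.21. The knockout median, -0.08, was -0.0033 with TMM factors, 0.017 with DESeq2 factors, 0.19 with equal weight, 0.20 thinned, -0.13 under a stricter minimum of reads and genes per cell, 0.017 without the 5% deepest cells, 0.38 in set 1, 0.33 with and 0.48 without Y-linked reads, 0.57 without the deepest knockout cluster and 0.41 with Evx1 reads taken off. Evx1 changed sign there (-0.31 to 0.39); Lhx1 stayed below 0 (-1.38 to -0.21) and Gsc above it (0.21 to 1.30). The cause of these shifts was not tested. Of all genes, 999 were past 2-fold in the knockout comparison and 647 between stages, and the largest counts were 2041 and 1915, in set 1 cells without Y-linked reads; adding 10 CPM gave fewer in both, with 190 between stages. The share of E7.25 reads held by a gene's highest cluster depended on the clustering: it was 26.3 to 59.5% for Mixl1, 22.97 to 79.3% for Gsc, 9.88 to 28.6% for Evx1 and 27.7 to 74.5% for Lhx1. The mean r of Gsc with Lhx1 was 0.40 to 0.61 and of Mixl1 with Evx1 0.28 to 0.41. The stage comparison without definitive endoderm and axial-like clusters was not run, because no E7.25 cluster got that name. Cluster 5 had Trh, Sox17 and Chrd among its top genes by fold, beside 7 epiblast markers at least 2-fold higher. No paired analysis was possible because the labels name no embryo or pair that links cells between groups, and no test was run.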
